A study of Mus musculus with 11 samples.

Results

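The genes described here are 10 markers of macrophages, Csf1r, Adgre1, Cd68, Cd14, Ms4a7, Mrc1, C1qa, C1qb, C1qc and Lyz2, followed through 11 mammary tumours of female mice aged 12 weeks. They were taken from a fixed list of names with every probe that the platform annotation gives to them. Of the 10 genes 9 had at least 1 probe, 17 probes in all among the 45281 of the array, and Cd68, a lysosomal glycoprotein of macrophages, had no probe and was not analysed here. Tumours came from PyMT/SIRT6 mice (5 samples) and PyMT mice (6 samples), with 1 array each. All mice carried the polyoma middle T oncogene (PyMT), which causes mammary tumours, and the PyMT/SIRT6 mice also carried the Sirt6BAC allele, an additional Sirt6 gene on a bacterial artificial chromosome. The labels give neither the promoter of the oncogene nor whether any mouse gave more than 1 tumour, so the p-values speak only of the spread among these tumours, which may be partly technical.

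Macrophages live in almost every tissue and are replenished in tumours from blood monocytes. The receptor tyrosine kinase CSF1R, bound by CSF1 or IL-34, keeps them alive, and the transcription factor PU.1 switches on many of their genes. Mammary tumours driven by polyoma middle T are known to recruit macrophages, and loss of CSF1 in such mice delays their progression. Tumour macrophages take up debris and sugars through scavenger receptors and release complement C1q and lysozyme.

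The promoters of 5 genes are shown because these genes are among those whose co-variation is described further on. For 6 of the 10 genes windows were taken from the RefSeq promoter table for build GRCm38.p6, and the 250 bases before the start were searched. Promoters of the remaining genes, C1qa, Adgre1, Csf1r and Cd14, were not searched. For Csf1r and Cd14 this does not mean that the table lacks an entry. C1qb and C1qc are next to each other on chromosome 4, with C1qa beside them. Capitals mark the PU box GAGGAA, bound by PU.1, and the ETS core AGGAAGT, bound by PU.1 and its relatives, on either strand, and these letters overlap where AGGAA is shared.
C1qb promoter, chr4:136886201-136886450, minus strand: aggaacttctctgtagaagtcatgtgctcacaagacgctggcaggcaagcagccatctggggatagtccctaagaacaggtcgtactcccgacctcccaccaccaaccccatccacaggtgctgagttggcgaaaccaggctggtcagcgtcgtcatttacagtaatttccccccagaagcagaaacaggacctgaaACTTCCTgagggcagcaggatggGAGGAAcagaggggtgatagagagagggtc
C1qc promoter, chr4:136892915-136893164, minus strand: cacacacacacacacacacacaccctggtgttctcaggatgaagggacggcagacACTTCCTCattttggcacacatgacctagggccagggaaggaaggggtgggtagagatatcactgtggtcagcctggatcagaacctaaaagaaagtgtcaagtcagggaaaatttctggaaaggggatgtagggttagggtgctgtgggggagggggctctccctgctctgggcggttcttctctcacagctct
Mrc1 promoter, chr2:14229164-14229413, plus strand: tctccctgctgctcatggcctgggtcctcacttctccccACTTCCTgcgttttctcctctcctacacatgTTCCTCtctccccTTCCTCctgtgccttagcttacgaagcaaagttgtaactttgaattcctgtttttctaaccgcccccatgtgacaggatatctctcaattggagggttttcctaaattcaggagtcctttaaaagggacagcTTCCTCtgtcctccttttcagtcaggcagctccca
Lyz2 promoter, chr10:117282273-117282522, minus strand: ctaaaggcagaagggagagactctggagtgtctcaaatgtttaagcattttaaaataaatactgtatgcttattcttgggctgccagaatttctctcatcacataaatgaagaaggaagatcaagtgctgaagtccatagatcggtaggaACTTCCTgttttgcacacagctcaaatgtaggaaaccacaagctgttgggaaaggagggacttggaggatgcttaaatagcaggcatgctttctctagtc
Ms4a7 promoter, chr19:11336147-11336396, minus strand: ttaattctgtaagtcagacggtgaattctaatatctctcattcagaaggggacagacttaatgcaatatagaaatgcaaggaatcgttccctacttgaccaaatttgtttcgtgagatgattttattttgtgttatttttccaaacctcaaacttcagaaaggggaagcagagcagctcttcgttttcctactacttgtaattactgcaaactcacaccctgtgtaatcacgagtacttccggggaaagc
The PU box stood in 3 of these 5 windows and in 23.3% of 32851 promoter windows of the same length. The ETS core stood in 4 of the 5 and in 7.69% of all. In C1qc the letters formed 1 joined element on the strand opposite to the one shown, and Ms4a7 had neither motif. The C1qc window is that of the start in the table, which is not the gene's outermost one, and a second Ms4a7 window also lacked both motifs. The C/EBP letters TTGCNNAA and the AP-1 letters TGANTCA, on either strand, were in none of the 5 windows shown and in 9.56% and 6.75% of all. Of the windows not shown, the second of Ms4a7 held 1 AP-1 match, and that of Cd68 held 1 C/EBP match, 2 AP-1 matches and 1 PU box. Of the 6 genes searched 4 had the PU box and 4 the ETS core. The 5 genes were chosen by their co-variation in these data, so the shares of motifs are no test of it. A match is a description of these letters and does not show that a factor binds there.

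Of 10 mammary epithelial markers 9 passed the filter on dim probes, with the keratins Krt7 and Krt8 among them. The remaining marker was Epcam, an adhesion gene, named after its level was seen. The filter was also passed by 8 of 8 endothelial, 8 of 10 fibroblast and 20 of 20 measured skeletal muscle markers. Passing it therefore does not identify the tissue. Sirt6 ran from 291 to 399 in PyMT/SIRT6 tumours, against 199 to 235.5 in PyMT tumours (log2 difference 0.61 ± 0.09 SE, limma adjusted p = 0.0574). The deposited values are probe intensities whose lowest level is 116.7, so a dim probe shows less than the true fold. Skeletal muscle genes separated the tumours: the mean of the 20 measured lay between 9.90 and 11.61 on the log2 scale in PyMT/SIRT6 tumours 1, 4 and 5 and PyMT tumour 5, and between 7.40 and 8.38 in the other 7.

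Macrophage genes had higher averages in PyMT/SIRT6 tumours, but for none did the difference pass the test against the spread between tumours. All 9 measured genes had a positive difference, where 46.9% of the 14726 features tested did, with a median of 0.20 for the 9 and −0.01 for all features. Without PyMT/SIRT6 tumour 5 it was 8 of 9, with a median of 0.12. In limma 0 of the 9 passed an adjusted p of 0.05, against 0.0136% of all features (2, both higher). At an unadjusted p under 0.05 there was 1 of 9, Ms4a7, against 4.43% of all features (2.04% higher and 2.39% lower in PyMT/SIRT6), and by exact permutation 0 of 9. The genotypes overlapped in all 9 genes, while 0.292% of all features lay wholly above and 0.197% wholly below PyMT in PyMT/SIRT6 tumours. With every probe tested separately in limma, 0 of the 13 macrophage probes above the filter passed after adjustment, against 0.0265% of all probes tested, and 1 of 13 had an unadjusted p under 0.05, against 4.57% of all probes tested. The genes vary together across tumours, so the 9 signs are not 9 separate observations. In bulk tumour RNA, more macrophages and more RNA per macrophage cannot be told apart, nor can fewer and less. Nor can the cells that gave the RNA of each gene be told apart, and for Cd14 these may include other cells.

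**Figure D1:**
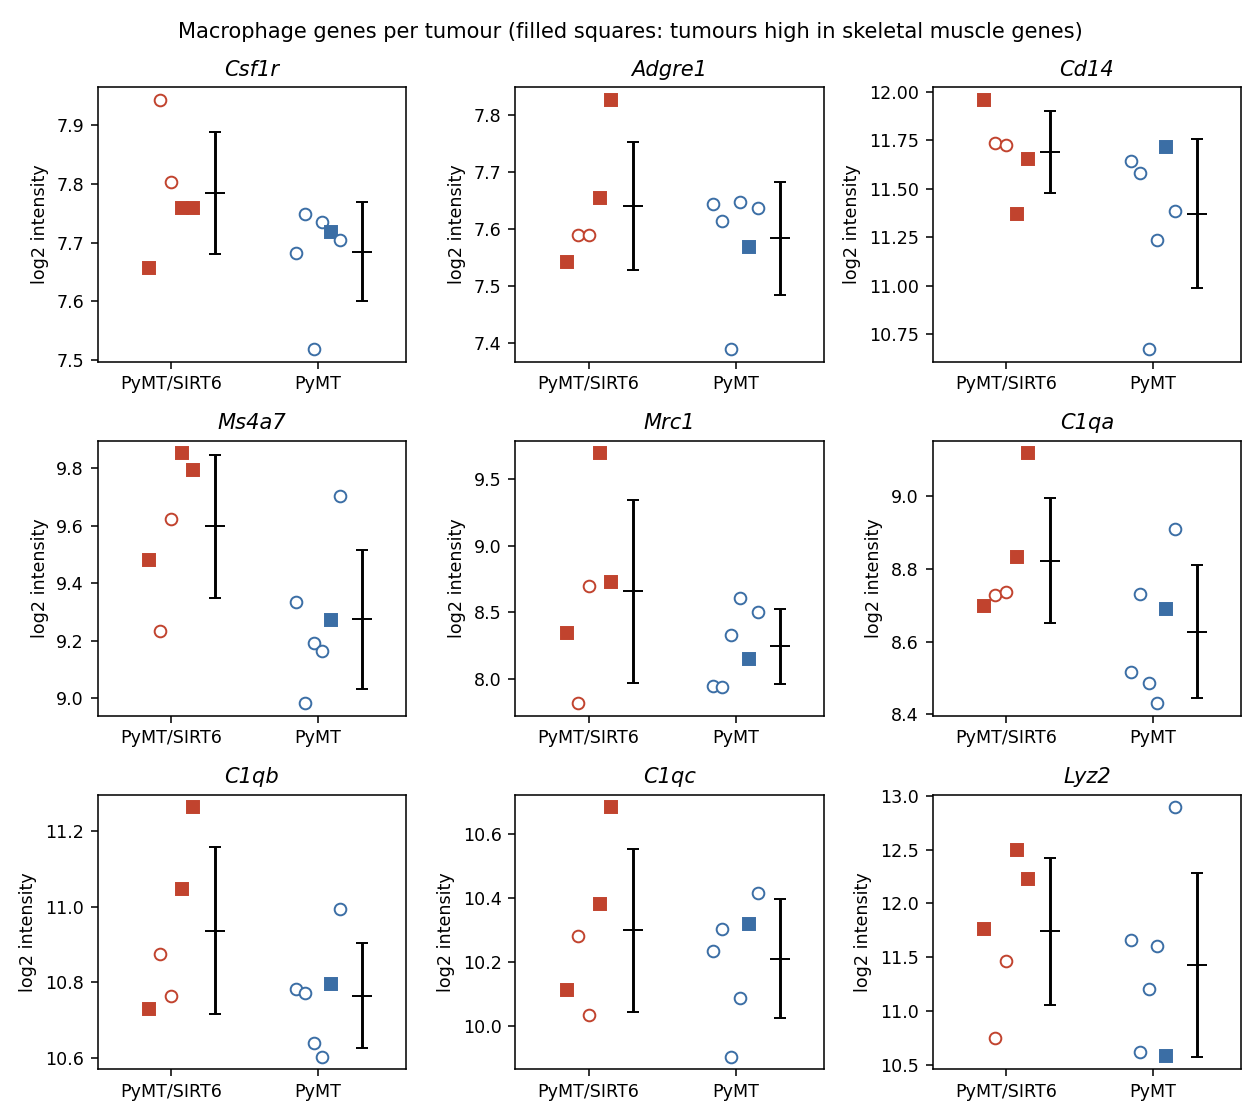
Log2 intensity of the brightest probe of each of the 9 measured genes, with 1 point per tumour, PyMT/SIRT6 (n = 5) left of PyMT (n = 6). Filled squares are the 4 tumours high in skeletal muscle genes, and bars show the mean ± SD. In all 9 genes the genotypes overlap.

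Csf1r, the receptor for CSF1 and IL-34, was dim on this array. Its brighter probe, ILMN_2710819, read 202, 246, 223, 217 and 216.5 in PyMT/SIRT6 tumours 1 to 5, against a lowest value of 183, a median of 209.7 and a highest of 215 in the 6 PyMT tumours. Of the PyMT/SIRT6 tumours 4 lay above the highest PyMT tumour and tumour 1 lay inside their range. The log2 difference was 0.10 ± 0.06 (SE, 95% interval −0.03 to 0.23, limma adjusted p = 0.983), and it was 0.06 without PyMT/SIRT6 tumour 2 and 0.07 without PyMT tumour 3. The second probe, ILMN_1230485, gave 0.00, and across the 11 tumours the probes had Pearson's r = 0.25 (permutation p = 0.448, adjusted 0.647 over 13 probe pairs of the same gene) and Spearman's rho = −0.08 (permutation p = 0.818), with r = −0.48 without the 2 farthest tumours. The 2 probes therefore did not rank the tumours alike.

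Adgre1, an adhesion G protein-coupled receptor long used to stain mouse macrophages, was also dim. Probe ILMN_1216880 read 186, 193, 192.5, 201.5 and 227 in PyMT/SIRT6 tumours, against 168, 198 and 201 as lowest, median and highest of the PyMT tumours. Only PyMT/SIRT6 tumour 5, and by less than 1 unit tumour 4, exceeded the PyMT range. The difference was 0.06 ± 0.06 (SE, 95% interval −0.08 to 0.19, limma adjusted p = 0.983), and the other probes gave 0.04 (ILMN_2847787) and −0.01 (ILMN_2756353). It was 0.01 without PyMT/SIRT6 tumour 5 and 0.02 without PyMT tumour 3.

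Cd14, the co-receptor that passes lipopolysaccharide to TLR4, read 3981, 3413, 3384, 2648 and 3224 in PyMT/SIRT6 tumours. In PyMT tumours the lowest value was 1632, the median 2869 and the highest 3364. PyMT/SIRT6 tumours 1, 2 and 3 lay above all PyMT tumours, and the lowest value was that of PyMT tumour 3, with the next PyMT tumour at 2409.5. The means were 11.69 ± 0.21 (SD, n = 5) in PyMT/SIRT6 and 11.37 ± 0.39 (SD, n = 6) in PyMT tumours on the log2 scale. The difference of 0.32 ± 0.18 (SE, 95% interval −0.07 to 0.70) did not pass (limma adjusted p = 0.983), and it was 0.18 without PyMT tumour 3.

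Mrc1, the mannose receptor CD206 that takes up glycoproteins, had the widest interval after Lyz2. It read 326, 226, 416, 825 and 425 in PyMT/SIRT6 tumours, against 246, 303 and 390.4 as lowest, median and highest in PyMT tumours. PyMT/SIRT6 tumour 4 was the highest of all 11, and PyMT/SIRT6 tumour 2 was the lowest of all 11. The difference was 0.41 ± 0.26 (SE, 95% interval −0.15 to 0.97, limma adjusted p = 0.983), 1.33-fold. It was 0.15 without PyMT/SIRT6 tumour 4 and 0.62 without PyMT/SIRT6 tumour 2.

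Ms4a7, a membrane protein of the CD20-like MS4A family found in tissue macrophages, had the smallest p of the 9. Its bright probe ILMN_3091003 read 715, 603, 789, 923 and 888 in PyMT/SIRT6 tumours, against 506, 601 and 833 as lowest, median and highest in PyMT tumours. All 5 PyMT/SIRT6 tumours lay above the PyMT median, and 2 lay above every PyMT tumour. The means were 9.60 ± 0.25 (SD, n = 5) and 9.27 ± 0.24 (SD, n = 6) on the log2 scale, a difference of 0.32 ± 0.14 (SE, 95% interval 0.01 to 0.63) or 1.25-fold (limma p = 0.0425, adjusted 0.983, exact permutation p = 0.0628). Its other 3 probes lay below the filter limit of 158.6 with differences from −0.01 to 0.02, and the mean of the 4 probes gave 0.08. The unadjusted p stayed under 0.05 in 3 of the 11 fits that left out 1 tumour.

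C1qa, C1qb and C1qc encode the A, B and C chains that assemble into C1q, which opens the classical complement pathway and is made largely by macrophages. C1qa read 415, 424, 427, 456 and 556 in PyMT/SIRT6 tumours, against 345, 389.7 and 482 as lowest, median and highest in PyMT tumours. C1qb read 1697, 1878, 1739.8, 2117 and 2459, against 1554, 1754 and 2041 in PyMT tumours in the same order. C1qc read 1107, 1245, 1050.3, 1335 and 1645, against 959, 1235 and 1367 in PyMT tumours. PyMT/SIRT6 tumour 5 was the highest of all 11 for each chain, and PyMT tumours 3 and 4 were among the 3 lowest for each.

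The chains' differences were 0.20 ± 0.11 for C1qa (95% interval −0.05 to 0.44), 0.17 ± 0.12 for C1qb (−0.09 to 0.43) and 0.09 ± 0.13 for C1qc (−0.20 to 0.38), each with a limma adjusted p of 0.983. Without PyMT/SIRT6 tumour 5 the C1qc difference turned to −0.01, that of C1qa was 0.12 and that of C1qb 0.09. The C1qc difference was 0.03 without PyMT tumour 3, 0.13 without PyMT/SIRT6 tumour 1 and 0.15 without PyMT/SIRT6 tumour 3.

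Lyz2 encodes lysozyme M, the bacteriolytic enzyme of macrophages and neutrophils. Probe ILMN_1252076 read 3483, 1717, 2819, 5778 and 4797 in PyMT/SIRT6 tumours, against 1537, 2737 and 7615 as lowest, median and highest in PyMT tumours. Both extremes were PyMT tumours, tumour 6 at the top and tumour 5 at the bottom. The difference of 0.31 ± 0.40 (SE, 95% interval −0.55 to 1.17, limma adjusted p = 0.983) was smaller than the SD within either genotype (0.69 in PyMT/SIRT6 and 0.85 in PyMT tumours). Single tumours moved it widely: it was 0.56, 0.12 and 0.19 without PyMT/SIRT6 tumours 2, 4 and 5, and 0.15, 0.14 and 0.60 without PyMT tumours 2, 5 and 6.

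A second Lyz2 probe, ILMN_2939681, followed the first over the 11 tumours with r = 0.93 (permutation p = 5e-05, adjusted 0.00065) and rho = 0.92 (permutation p = 1.9e-04, adjusted 0.00247), and r = 0.90 without the 2 farthest tumours. It differed by 0.36 between genotypes, and the remaining probe, ILMN_2766780, lay below the filter limit. Lyz1, the neighbouring lysozyme gene of near-identical sequence, was added for that likeness. Its bright probe ILMN_2878071 ran with the first Lyz2 probe at r = 0.97 across tumours, and whether these probes tell the 2 transcripts apart was not tested.

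**Figure D2:**
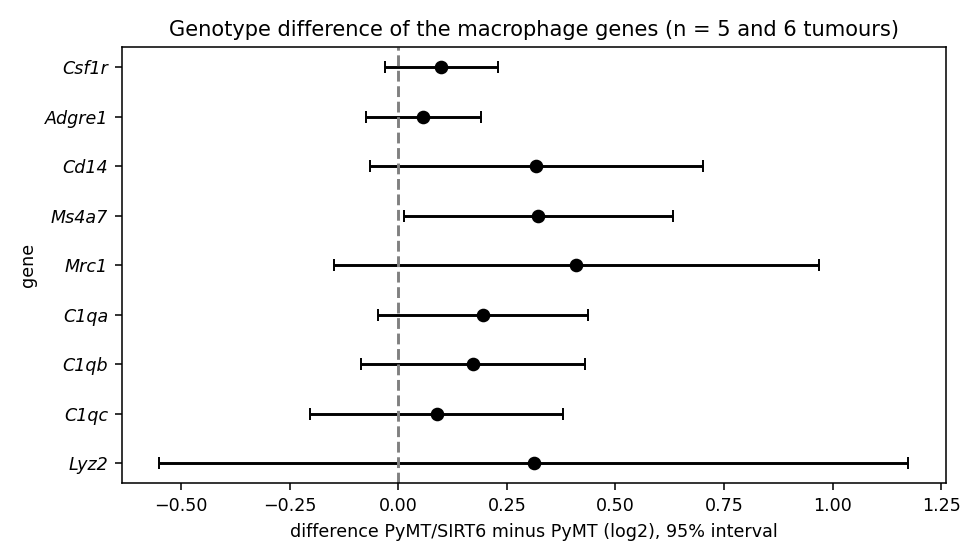
Difference in log2 intensity, PyMT/SIRT6 minus PyMT, for the brightest probe of each measured gene. Points are limma estimates and bars their 95% intervals. All 9 points lie above 0, and of the intervals that of Ms4a7 (0.01 to 0.63) excludes it before adjustment.

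Neutrophil markers, relevant to Lyz2, had list means of 7.55 to 7.82 in PyMT/SIRT6 and 7.54 to 7.95 in PyMT tumours, and 3 of 8 were bright enough to test. T and NK cell markers had positive differences in 5 of 5 tested of 14 listed (0 past the adjusted threshold, 3 at an unadjusted p under 0.05), with list means of 7.34 to 7.54 against 7.25 to 7.40. With the T and NK cell mean as a covariate 7 of 9 macrophage genes stayed positive, with a median of 0.09, Adgre1 at −0.04 and C1qc at −0.05. That mean takes in 11 measured genes, of which 5 passed the filter, and lies near the filter limit of 7.309. It is therefore a weak measure of T and NK cell content. Fibroblast markers had positive differences in 8 of 8 tested of 10 (0 past the threshold), with list means of 7.95 to 8.52 against 7.88 to 8.37, and the part of fibroblasts and neutrophils in the result was not tested. Mast cell markers had positive differences in 3 of 4 tested (median 0.14), with Cpa3 at −0.01. Kit was bright, at a mean log2 intensity of 11.64, while Cpa3, Cma1 and Mcpt4 lay at 7.33 to 7.39, close to the filter limit of 7.309. Endothelial markers were positive in 2 of 8 (median −0.06), adipocyte markers in 1 of 5 (median −0.04) and mammary epithelial markers in 3 of 9 (median −0.09). In the mast cell, endothelial, adipocyte and epithelial lists 0 passed the threshold, and their part was not tested.

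The genes differed in how widely they ranged over the 11 tumours. From the lowest to the highest tumour Lyz2 spanned 4.96-fold, Mrc1 3.64-fold, Cd14 2.44-fold, Ms4a7 1.82-fold and the C1q chains 1.58 to 1.72-fold. Csf1r and Adgre1 spanned 1.34-fold and 1.36-fold. With background subtracted by normexp these became 1.86-fold and 2.04-fold, and Mrc1 6.14-fold. PyMT/SIRT6 tumour 4 was among the 3 highest tumours for 8 of 9 genes, PyMT/SIRT6 tumour 5 for 7 and PyMT tumour 6 for 5. In accession order these 3 tumours come last, and the part of that order in the co-variation was not tested. PyMT tumour 3 was among the 3 lowest for 7 of 9 and the lowest of all for Csf1r, Adgre1, Cd14 and C1qc.

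**Figure D3:**
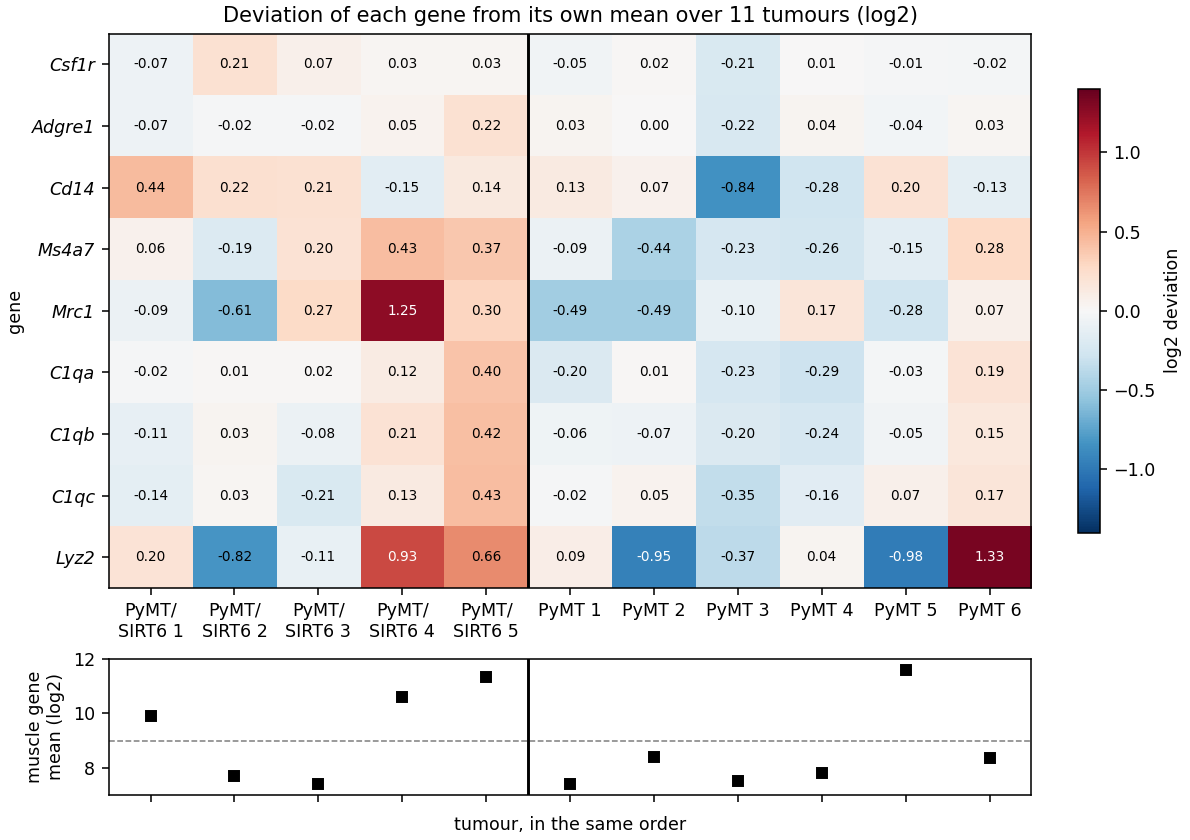
Deviation of each gene's log2 intensity from its own mean over the 11 tumours, PyMT/SIRT6 tumours left of PyMT tumours, above the mean log2 intensity of the skeletal muscle genes in the same tumours (dashed line at 9). PyMT/SIRT6 tumours 4 and 5 and PyMT tumour 6 are high for most genes, and PyMT tumour 3 is low.

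Within this variation the genes moved in related but not identical ways. Of 36 pairs 32 had a positive Pearson's r over the 11 tumours, with a median of 0.43, against 0.00 over all pairs of features tested, of which 14.1% exceeded 0.43. Among the brighter 7363 features, which hold 7 of the 9 genes, 19.6% of pairs did. After adjustment over the 36 pairs 7 passed at 0.05 by Pearson's r and 1 by Spearman's rho (100000 permutations each, two-sided). The tumours share the arrays' common normalization, and 11 of them give wide error on each r.

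The C1q chains were the most closely tied. C1qa and C1qb had r = 0.92 (permutation p = 6e-05, adjusted 0.0018) and rho = 0.78 (permutation p = 0.00685, adjusted 0.104), and r = 0.80 without the 2 tumours farthest from the C1qa median. C1qb and C1qc had r = 0.90 (permutation p = 1e-04, adjusted 0.0018) and rho = 0.90 (permutation p = 3.5e-04, adjusted 0.0126), and r = 0.81 without the 2 farthest. C1qa and C1qc had r = 0.83 (permutation p = 0.00214, adjusted 0.0225) and rho = 0.72 (permutation p = 0.0163, adjusted 0.118), and r = 0.68 without the 2 farthest. With genotype means taken out these were 0.90, 0.93 and 0.86, and among the 7 tumours low in muscle genes 0.89, 0.82 and 0.68.

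Ms4a7, Lyz2 and Mrc1 were more loosely tied, and not as a set apart from the C1q chains. Ms4a7 and Lyz2 had r = 0.82 (permutation p = 0.00252, adjusted 0.0225) and rho = 0.76 (permutation p = 0.0087, adjusted 0.104), and r = 0.75 without the 2 farthest tumours. Ms4a7 and Mrc1 had r = 0.74 (permutation p = 0.00485, adjusted 0.0291) and rho = 0.70 (permutation p = 0.0197, adjusted 0.118), and r = 0.55 without the 2 farthest. Mrc1 and Lyz2, at r = 0.67 (permutation p = 0.0195, adjusted 0.0703), did not pass, with rho = 0.67 (permutation p = 0.0279) and r = 0.56 without the 2 farthest. Ms4a7 ran as closely with C1qb as with Mrc1 (r = 0.74, permutation p = 0.00726, adjusted 0.0373, rho = 0.67, permutation p = 0.0269), at r = 0.51 without the 2 farthest. With C1qa it had r = 0.70 (permutation p = 0.0141, adjusted 0.0563), which did not pass, and rho = 0.72 (permutation p = 0.0167).

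Adgre1 and C1qc, at r = 0.83 (permutation p = 0.00313, adjusted 0.0225) and rho = 0.59 (permutation p = 0.0598), had r = 0.33 without PyMT tumour 3 and PyMT/SIRT6 tumour 5, so the relation rests on those tumours. Cd14 had negative coefficients that did not pass with Lyz2 (r = −0.11, permutation p = 0.762, rho = −0.18, permutation p = 0.594) and with Mrc1 (r = −0.21, permutation p = 0.494, rho = −0.25, permutation p = 0.467), with r = −0.51 and −0.48 without the 2 farthest tumours. Cd14 and Csf1r had r = 0.57 (permutation p = 0.0913, adjusted 0.253, rho = 0.28, permutation p = 0.403), which turned to −0.29 without PyMT tumour 3 and PyMT/SIRT6 tumour 2. With Adgre1, Ms4a7 and the C1q chains Cd14 had r from 0.18 to 0.43 and rho from −0.29 to 0.22, none of which passed. Without the 2 farthest tumours these r ran from −0.88 (Adgre1) to −0.34 (C1qa), with PyMT tumour 3 left out each time. The positive signs of Cd14 therefore rest on few tumours.

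**Figure D4:**
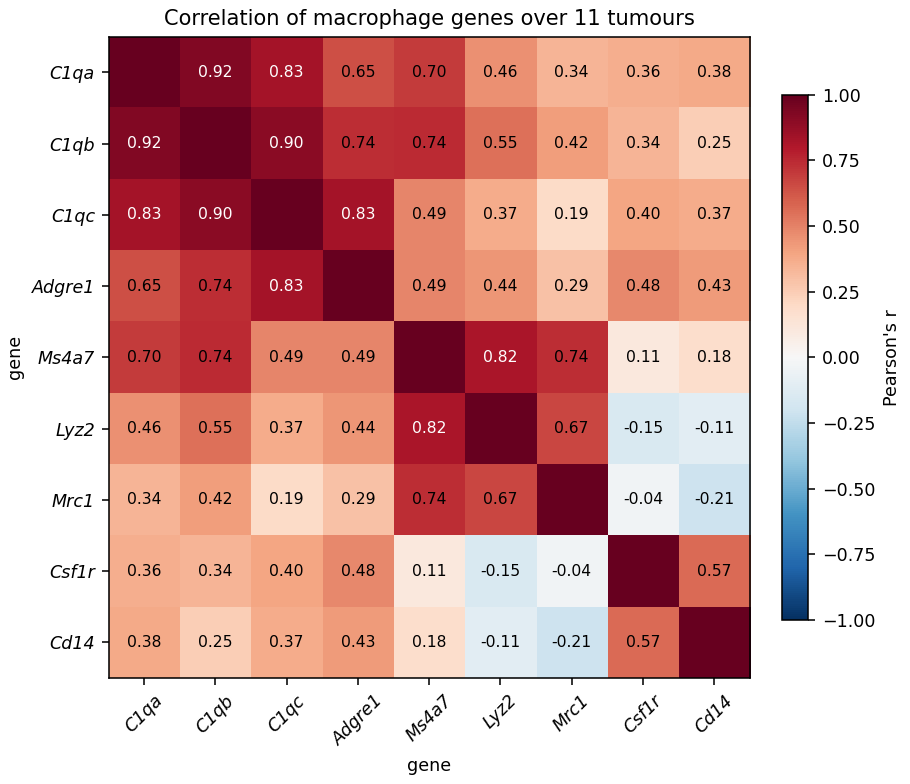
Pearson's r between the 9 measured genes over 11 tumours, each cell a pair of genes and the colour and number its r. The C1q chains reach 0.83 to 0.92 with each other, and Cd14 lies between −0.21 and 0.57 with every other gene.

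Genes with the most similar pattern were ranked by Pearson's r with the mean log2 deviation of the 9 genes, to which Lyz2 and Mrc1 with their wide spread contribute most. Over the 11 tumours and among the tested genes outside the set, the nearest were Marchf1, a ubiquitin ligase acting on MHC class II (r = 0.97), the eosinophil chemokine Ccl11 (0.95), Pkib, an inhibitor of protein kinase A (0.94), Cfp, the complement regulator properdin (0.92), the lectin Cd209b (0.92) and the interferon-inducible Ifi205 (0.92). The next were Trem2, a lipid-sensing receptor of macrophages (0.91), Eva1b (0.90), Arl11 (0.90), the folate receptor Folr2 (0.90), Ifi207 (0.90) and the beta-glucan receptor Clec7a (0.90). Trem2, Folr2 and Clec7a stood in the list of scavenger and phagocytic receptors. Cd209b, Ifi205, Marchf1, Clec7a and Pkib were dim, at mean log2 intensities of 7.37 to 7.53 near the filter limit of 7.309. Each of C1qb's nearest genes was another C1q chain, C1qa (0.92) and C1qc (0.90). The nearest to Lyz2 were Mfsd11 (0.99) and Lyz1 (0.97) and the nearest to Ms4a7 were Ccl11 (0.94) and Trappc2l (0.94). For Csf1r, Adgre1, Cd14 and Mrc1 the nearest genes also lay outside the macrophage set, such as Palmd (0.90), Golph3l (0.93), Pigo (0.93) and Ap4s1 (0.97). These likenesses are descriptions chosen from the top of a ranking and carry no test.

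Tumours rich in muscle were not uniformly rich in macrophage genes. PyMT tumour 5 had the highest muscle mean of all, 11.61, and the lowest Lyz2, with ranks between 4 and 11 of 11 for the macrophage genes. PyMT/SIRT6 tumours 4 and 5, with muscle means of 10.62 and 11.34, held the highest or second highest place for Ms4a7, Mrc1, C1qb and Adgre1. PyMT/SIRT6 tumour 1, at 9.90, ranked 1 of 11 for Cd14, 10 of 11 for Csf1r and Adgre1 and 9 of 11 for C1qb. PyMT tumour 6 had a muscle mean of only 8.35 and the highest Lyz2. Because the muscle means fall into separate clusters, no correlation over all 11 tumours is given. Among the 7 tumours low in muscle genes, r between the muscle mean and the 9 genes ran from −0.11 for Ms4a7 to 0.69 for C1qc, and the lowest exact permutation p was 0.081 (rho = 0.64, exact permutation p = 0.139, both for C1qc), or 0.729 adjusted over the 9.

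**Figure D5:**
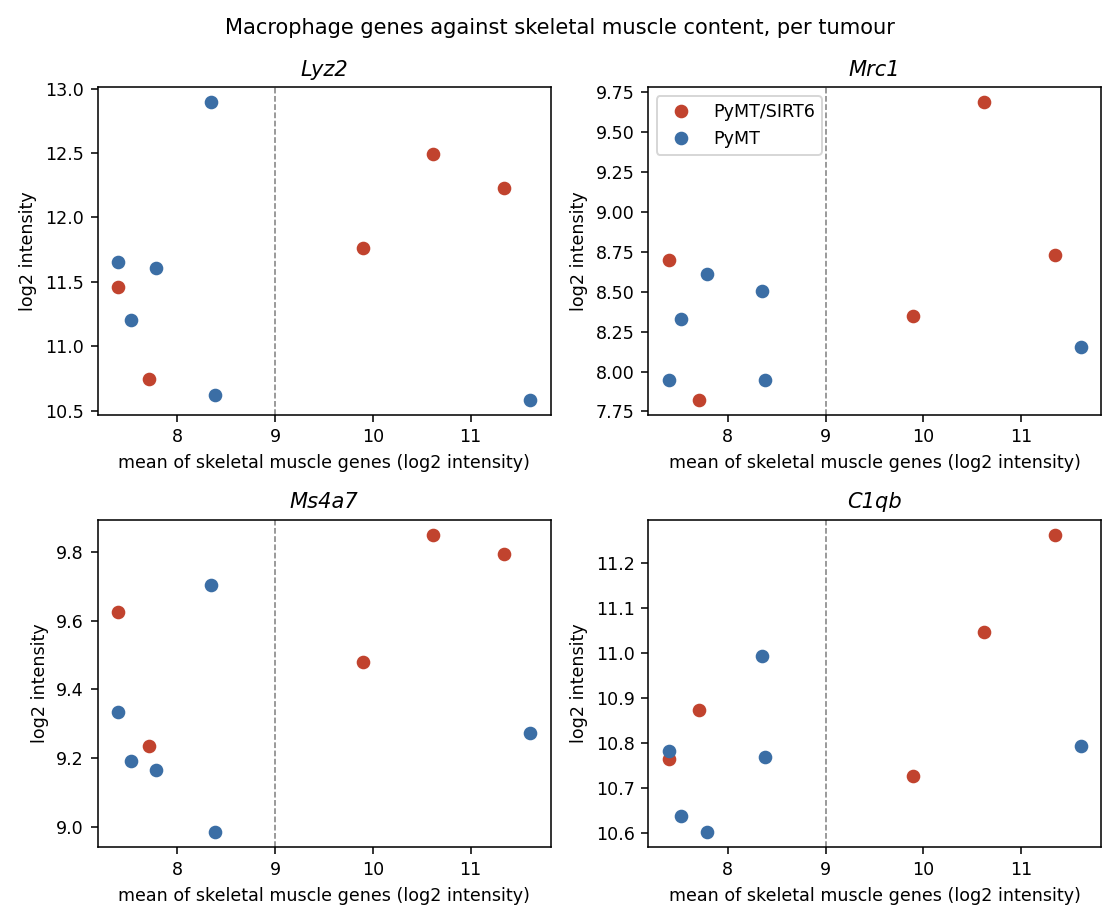
Log2 intensity of Lyz2, Mrc1, Ms4a7 and C1qb (vertical axes) against the mean log2 intensity of the skeletal muscle genes (horizontal axes), with 1 point per tumour coloured by genotype and a dashed line at 9. Right of the line stand 3 PyMT/SIRT6 tumours and 1 PyMT tumour, and that PyMT tumour has the lowest Lyz2.

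The genotype differences of several genes turned on these tumours. Muscle genes had positive differences in 18 of 20 tested (0 past the threshold), with list means of 7.40 to 11.35 in PyMT/SIRT6 and 7.40 to 11.61 in PyMT tumours. Without the 4 tumours, which leaves 2 PyMT/SIRT6 and 5 PyMT tumours, 6 of 9 genes were positive where 49.1% of all features were, and the median was 0.06. Lyz2 then differed by −0.49, Mrc1 by −0.01 and C1qc by −0.03, while Cd14 differed by 0.43, Csf1r by 0.19, Ms4a7 by 0.15, C1qa by 0.12, C1qb by 0.06 and Adgre1 by 0.0028. The smallest unadjusted limma p of the 9 was then 0.0489, for the dim Csf1r, and Ms4a7 had 0.48. All limma adjusted p were 0.997 or more. With the muscle mean as a covariate in all 11 tumours 9 of 9 stayed positive, with a median of 0.15. The smallest unadjusted limma p of the 9 was then 0.0836, for Ms4a7, whose log2 difference was 0.28. The part of muscle tissue in the differences was not tested beyond this.

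Among other genes of macrophage function, few differences stood out and none passed after adjustment. The lists were chosen with earlier results of these data known. Of 102 genes in 11 lists 75 were tested, 47 with a positive and 28 with a negative difference (62.7% positive), and their median was 0.04. In limma 0 were called, and an unadjusted p under 0.05 was found for 4 (5.33%, against 4.43% of all features), 2 in each direction. These were Serping1, the inhibitor of C1 (0.53 ± 0.23 SE), the IgG receptor gene Fcgr4 (0.44 ± 0.20), Il34, a ligand of CSF1R (−0.08 ± 0.03), and the chemokine Cxcl10 (−0.11 ± 0.05), each with a limma adjusted p of 0.983. Il34 and Cxcl10 were dim, at means of 7.31 in PyMT/SIRT6 tumours against 7.39 and 7.41 in PyMT tumours, close to the filter limit of 7.309.

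By role, 7 of 8 Fc receptor and adaptor genes were positive, with Tyrobp, a signalling adaptor, at 0.16 ± 0.15 and the exception, the high-affinity IgG receptor gene Fcgr1, at −0.08 ± 0.05. Of 11 tested scavenger and phagocytic receptors 10 were positive, with a median of 0.05, among them Trem2 at 0.21 ± 0.14 and Folr2 at 0.19 ± 0.15. In the pathway of CD14 5 of 7 were positive, with the lipopolysaccharide carrier Lbp at 0.30 ± 0.14 and the receptors Tlr2 at 0.18 ± 0.10 and Tlr4 at 0.14 ± 0.08. Csf1, the other ligand of CSF1R, was at 0.08 ± 0.05.

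Transcription factors of the lineage were split 3 to 3, complement partners 2 to 3 and lysosomal genes 5 to 6, positive against negative. Tumour-promoting products were positive in 3 of 8 and negative in 5, with a median of −0.07. Among them were Ctsc, a lysosomal protease that activates granule proteases, at 0.19 ± 0.12, Wnt7b at −0.15 ± 0.16 and Egf at −0.10 ± 0.10. Monocyte recruitment genes were positive in 5 of 8 and inflammatory activation genes in 4 of 6. Of 9 alternative activation genes 3 were bright enough to test, with the arginine-consuming enzyme Arg1 at −0.35 ± 0.40 and Retnla at 0.38 ± 0.37. In each of these lists 0 genes passed in limma after adjustment.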

How the data were processed

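Per the labels' protocols, tumour RNA was made into biotinylated cRNA (Ambion MessageAmp) for the Illumina WG-6 v2.0 mouse array. The deposited values are linear probe intensities. For the steps the authors took on background and normalization, software and method were not given in the sources. After sorting, the arrays differed by at most 1.08%, and no scaling was added. Precision is limited by having 11 arrays. For each of 19057 genes the probe of highest mean was kept, 29453 features in all, on the log2 scale, and the lower 50% by mean (below 158.6, or 7.309 on the log2 scale) were left out, giving 14726. Probe names follow GEO's platform annotation, updated by gene ID through the RefSeq table, which changed 0 symbols. Genotypes were taken from the strain label and compared with limma 3.58.1 in R 4.3.3 (lmFit and eBayes with trend, no covariate), with Benjamini-Hochberg adjustment over all features. Exact permutation tests were two-sided over all 462 splits, with a smallest p of 0.002165. The fit and the correlation steps were tested on simulated data. The genes and lists were chosen with earlier results of these data known. All 9 measured genes and, per list, up to 4 of smallest p were open to naming, with the 12 genes closest to the mean pattern and the 2 closest to each gene. Alternatives covered filters, probe summaries, background, centring, eBayes settings, array weights, accession order, covariates and left-out arrays.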

Additional observations from a re-analysis of the deposited data

Results flagged for a closer look

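In 34 sets of values (17 probes in each genotype) 3 held a tumour far from the others of its genotype by Dixon's ratio, where chance gives about 1 in 20 sets. PyMT tumour 3 stood low on the log2 scale for Csf1r, at 7.52 on probe ILMN_2710819 with the next PyMT tumour at 7.68. It stood low also for Adgre1, at 7.39 on probe ILMN_1216880 with the next at 7.57. PyMT/SIRT6 tumour 4 stood low on the dim Ms4a7 probe ILMN_1252361, at 7.16 with the next at 7.22, while it was the highest tumour on the bright Ms4a7 probe.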

How the results depend on the processing

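The count of features past the threshold, 2 here, was 4 with the mean of a gene's probes, 6 with every probe tested separately, 4 with normexp, 4 with array weights, 1 with accession order as a block and 0 without the 4 arrays high in skeletal muscle genes, and ran from 1 to 3 when any 1 array was left out. The count of macrophage genes past it was 0 in limma under all 25 alternatives, and the lowest adjusted p was 0.511. At an unadjusted p under 0.05 there were 0 to 2 genes, and 1 in the main fit, against 4.43% of all features there. With accession order as a block 9 of 9 differences were positive, against 46.5% of all features. The median of the 9 was then 0.21, with Ms4a7 at 0.35 and Mrc1 at 0.47. Of 227 differences recomputed 220 kept their sign, though the filters and eBayes settings leave a probe's estimate unchanged and could not turn it. With the T and NK cell covariate, a mean near the filter limit, Adgre1 turned to −0.038 and C1qc to −0.048. Without the muscle-rich arrays Mrc1 turned to −0.0052, C1qc to −0.031 and Lyz2 to −0.49. The Adgre1 probe ILMN_2756353 stood at −0.0054. C1qc ran from −0.0080 (without PyMT/SIRT6 replicate 5) to 0.154 when any 1 array was left out. The cause of these turns was not tested. Csf1r and Adgre1 were too dim to be tested when the lower 75% of features were left out. The median pair correlation of 0.43 lay between 0.34 and 0.48 under 18 alternatives. No paired analysis was done, as the labels used here link no PyMT/SIRT6 tumour to a PyMT tumour. The labels give no replicate numbers, so tumours were numbered in accession order within each genotype. Signal near background limits what Csf1r and Adgre1 can show.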
